A study of Mus musculus with 11 samples.

Results

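Chemokine receptors are the surface receptors through which regulatory T cells (Tregs) sense the chemokines that a tissue releases. The 9 receptor genes described here are Ccr1, Ccr2, Ccr4, Ccr6, Ccr7, Ccr8, Cxcr3, Cxcr4 and Cxcr6. They were chosen by symbol from the deposited table, and all 9 were found among its 14604 genes. The mouse colon adenocarcinoma line MC38 was implanted, and Tregs were sorted by flow cytometry as live CD4+ GITR+ CD25+ cells from the tumors and, per the study's methods, from the spleens of those same mice. Their RNA was sequenced after depletion of ribosomal RNA in 11 libraries, which allows tumor-infiltrating Tregs (TI-Tregs) to be compared with splenic Tregs. Wild type here means CD177flox/flox, a floxed allele without Cre, in 3 spleen and 3 tumor libraries. Knockout means CD177flox/flox/FOXP3-CreYFP, in which a Cre recombinase expressed with Foxp3 acts on the floxed allele in Foxp3-expressing cells, in 3 spleen and 2 tumor libraries. All groups thus shared the floxed allele and the MC38 implant, and no group had mice without a tumor. Age and sex of the mice are not given in the labels, and neither is a tie of each library to 1 animal, so the p-values below measure the spread between libraries. Tumor and spleen libraries can share a mouse, and the tests treat the 11 libraries as independent.

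Chemokine receptors are G-protein-coupled receptors with 7 membrane-spanning helices. Ligand binding releases Gi-type G proteins, which drive directed migration, and G-protein-coupled receptor kinases and arrestins then silence and internalize the receptor. Naive and central Tregs recirculate through lymphoid organs by way of CCR7, whereas activated Tregs carry receptors such as CCR4, CCR6, CCR8 and CXCR3 that are used for entry into inflamed tissue and tumors. CCR1 and CCR2 are best known from monocytes, macrophages and other myeloid cells, although activated T cells can carry them too.

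Each value below is a level on the deposited log2(n + 1) scale. Here n is what the authors' processing made of a gene's estimated read count. A difference is the tumor mean minus the spleen mean on that scale, so a difference of 1 is a doubling of n + 1, and the change of a gene near 0 is understated. The 13897 genes with a mean level of at least 0.5 were tested with limma, and a gene was called at a Benjamini-Hochberg adjusted p below 0.05 over all of them. The 9 receptors all passed the filter on low levels, Ccr1 through its tumor libraries only. Taken back to n, the libraries summed to 712832 to 844331 in spleen and to 1103159 to 1304548 in tumor. In each library 1 gene, Gm12896, held between 31.4% and 42.4% of n. The library sums of n lie far below the approximate number of reads per library in the study's methods. So n is not taken here as a number of reads. The sources do not state a rescaling of n, and the number of reads behind a value is unknown.

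The sorted samples carried the defining genes of Tregs and also those of other cells. Foxp3 had a mean level of 6.35 in spleen and 5.50 in tumor, Il2ra (CD25) 7.26 and 7.0, and Tnfrsf18 (GITR) 6.43 and 7.51. Of 17 monocyte and macrophage markers, 17 rose in the tumor libraries, with a median difference of 5.0, beside 43.1% of all genes tested. The summed level of these markers lay between 8.34 and 9.29 in spleen and between 13.8 and 14.3 in tumor. Lyz2, the lysozyme gene of myeloid cells, had a mean level of 4.75 in spleen and 12.35 in tumor. The values therefore describe the sorted samples as sequenced, and in bulk RNA fewer cells of a type and less RNA per cell cannot be told apart.

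The receptor genes lie on 5 chromosomes of GRCm38 (mm10, GENCODE release M21). Ccr1 (chr9:123962124-123968692, minus strand), Ccr2 (chr9:124101950-124113557, plus), Ccr4 (chr9:114490316-114504916, minus), Ccr8 (chr9:120092114-120094906, plus) and Cxcr6 (chr9:123806475-123811760, plus) share chromosome 9. Ccr6 lies at chr17:8236043-8257141 on the plus strand and Ccr7 at chr11:99144196-99155077 on the minus strand. Cxcr4 lies at chr1:128588199-128592293 and Cxcr3 at chrX:101731535-101734269, both on the minus strand. No exon of the 9 genes overlaps an exon of another gene. Of the 31-base stretches of the Ccr2 transcripts, 3.48% recur in transcripts of other genes, so reads from these stretches could be shared with other genes. For each of the other 8 genes the share was below 1%.

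Start-site windows are shown for Ccr1, Ccr8 and Cxcr4, 3 of the 4 receptors whose tumor libraries all lay above the spleen libraries, and for Ccr6, which lay below. The other one, Ccr2, is left out because all but 17 bases of its window lie in annotated exons. The sequences were taken from RefSeq (GRCm38.p6) and run 5′ to 3′ on the gene's strand over up to 250 bases that end before the first annotated exon base. Capitals mark matches to short motifs searched on both strands. For AP-1 the letters searched were TGANTCA. For the RUNX family, a group of transcription factors central to T cell development, they were TGTGGT. Sites of the zinc-finger factors of the GATA family were searched as AGATAA, and those of the PU.1 type within the ETS family of factors as GAGGAA. For the TATA box, at which the basal transcription machinery can assemble, the search was for TATAAA. The windows are chr9:123968693-123968942 (minus) for Ccr1, chr9:120091883-120092113 (plus) for Ccr8, chr1:128592300-128592549 (minus) for Cxcr4 and chr17:8235793-8236042 (plus) for the first of 2 Ccr6 starts.
Ccr1: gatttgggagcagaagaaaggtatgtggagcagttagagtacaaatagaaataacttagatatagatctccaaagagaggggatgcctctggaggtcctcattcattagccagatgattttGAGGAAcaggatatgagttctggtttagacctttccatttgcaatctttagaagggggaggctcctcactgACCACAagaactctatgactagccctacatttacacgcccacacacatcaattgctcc
Ccr8: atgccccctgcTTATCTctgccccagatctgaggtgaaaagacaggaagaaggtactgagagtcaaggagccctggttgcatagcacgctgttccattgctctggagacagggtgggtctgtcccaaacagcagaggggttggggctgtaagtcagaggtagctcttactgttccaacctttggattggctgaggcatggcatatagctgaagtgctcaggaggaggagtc
Cxcr4: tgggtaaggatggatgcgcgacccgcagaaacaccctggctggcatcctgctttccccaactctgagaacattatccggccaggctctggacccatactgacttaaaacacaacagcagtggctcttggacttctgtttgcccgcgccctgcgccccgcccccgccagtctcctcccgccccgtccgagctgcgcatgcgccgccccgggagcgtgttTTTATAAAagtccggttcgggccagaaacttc
Ccr6: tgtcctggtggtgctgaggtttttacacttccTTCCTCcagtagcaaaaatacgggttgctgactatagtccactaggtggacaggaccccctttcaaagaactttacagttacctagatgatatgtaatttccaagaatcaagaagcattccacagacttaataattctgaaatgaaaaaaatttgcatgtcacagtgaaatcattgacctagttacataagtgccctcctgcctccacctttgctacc

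Positions are counted back from the RefSeq start, which for Ccr8 lies 19 bases downstream of the end of the printed run. The Ccr1 window held an ETS match 129 to 124 bases and a RUNX match 58 to 53 bases before the start. The Cxcr4 window held a TATA match 30 to 25 bases before the start that overlaps another on the other strand. The Ccr8 window held a GATA match 239 to 234 bases before the start, and the Ccr6 window an ETS match 218 to 213 bases before it. Such matches are common. Among 32851 RefSeq windows of 250 bases, 23.3% held the ETS motif, 14% the RUNX motif, 12.4% the TATA box, 9.99% the GATA motif and 6.75% the AP-1 motif. A RUNX match was also found in the window of Cxcr6, and a GATA match among the exon bases in that of Ccr2. The Cxcr3 window held a RUNX and an ETS match, both among its exon bases. In the Ccr4 window there was an AP-1 match, and in the second Ccr6 window a GATA match. No motif was found in the windows of all 5 receptors that rose most (Ccr1, Ccr2, Ccr8, Cxcr4 and Cxcr6). In all, 8 of the 9 receptors had a RefSeq window, and Ccr7 had none.

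In the tumor, 6 receptors were higher and 2 were lower as deposited, and Ccr4 was not called. Ccr1, Ccr2, Ccr8, Cxcr4 and Cxcr6 rose, Ccr7 rose slightly, and Ccr6 and Cxcr3 fell, and for Ccr7, Ccr4 and Cxcr3 the direction depended on the scaling of the libraries. This made 8 of 9 receptors called, beside a background of 78.9% of all genes tested (43.1% higher and 35.9% lower in tumor). A call in itself therefore sets the receptors little apart from other genes, and the size of each difference carries more. The median difference of the 9 was 1.47, and the median over all genes tested was 0.08. In 5 receptors the tumor and spleen libraries did not overlap, 4 higher and 1 lower. Over all genes 35.2% were higher without overlap and 28.4% were lower without overlap.

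**Figure D1:**
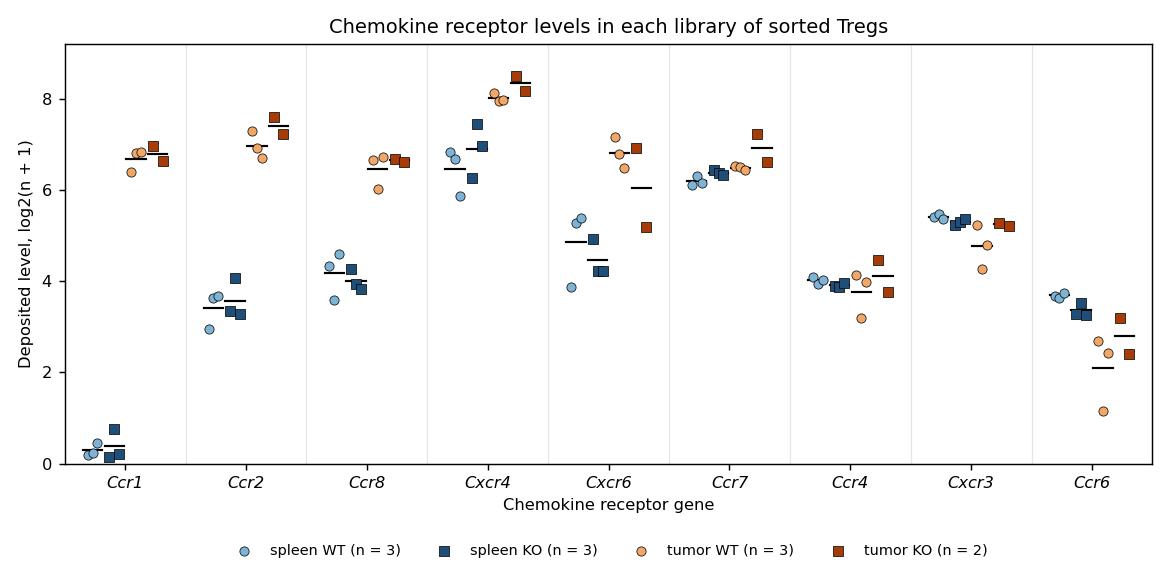
Level of each chemokine receptor gene on the deposited log2(n + 1) scale in each of the 11 libraries, by tissue and genotype. Points are libraries and bars are group means. Ccr1 sat below 0.8 in each spleen library and above 6.4 in each tumor library, whereas the points of Ccr4 overlap between tissues.

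The plot of levels by library shows the inflammatory receptors of the myeloid kind at its left, with the widest gap between tissues. CCR1 binds CCL3, CCL5, CCL6 and CCL9. In spleen the Ccr1 level was 0.18, 0.23 and 0.46 in the wild-type libraries and 0.15, 0.76 and 0.22 in the knockout libraries. In tumor it was 6.40, 6.80 and 6.84 in wild type and 6.96 and 6.63 in knockout. Ccr1 was thus close to absent from each splenic library and well above it in each tumor library, and on the n scale its median was 0.169 in spleen and 110.8 in tumor. The difference was 6.39 (SE 0.133, 95% interval 6.10 to 6.68, adjusted p = 1.85e-12 by limma with Benjamini-Hochberg adjustment). Among the 13897 genes this was the 35th largest rise. The exact two-sided permutation test over libraries gave p = 0.0043, the smallest that 5 against 6 libraries allow.

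CCR2 is the receptor of CCL2, CCL7 and CCL12 and drives the exit of monocytes from bone marrow. The Ccr2 level was 2.95, 3.64 and 3.68 in wild-type spleen and 3.35, 4.06 and 3.27 in knockout spleen. It was 7.29, 6.92 and 6.69 in wild-type tumor and 7.59 and 7.22 in knockout tumor. Unlike Ccr1, Ccr2 had a moderate level in each splenic library, and each tumor library again lay above all of them. The difference was 3.65 (SE 0.194, adjusted p = 2.72e-09 by limma with Benjamini-Hochberg adjustment), the 305th largest rise. Both genes moved with the monocyte and macrophage markers between tissues. In spleen the highest Ccr1 and Ccr2 levels fell in knockout library 2, where the summed level of the dendritic cell markers was 4.42, against 2.99 to 3.34 in the other spleen libraries. The summed B cell markers (5.50) and CD8 T and NK cell markers (5.55) were also highest in that spleen library. For the macrophage markers the order of the spleen libraries depended on the measure. Their summed level was highest in wild-type library 1 (9.29), which had the lowest Ccr2, and nearly as high in knockout library 2 (9.22). By the median level of these markers, knockout library 2 was the highest spleen library. In tumor their summed level was highest in wild-type library 2 (14.3) and their median level in wild-type library 3. Ccr1 and Ccr2 were highest there in knockout library 1, with a summed level of 13.9. What part the other cells have in these rises was not tested.

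CCR8 is a receptor of CCL1 and is known as a marker of activated Tregs in tumors. The Ccr8 level was 4.33, 3.59 and 4.60 in wild-type spleen and 4.27, 3.93 and 3.83 in knockout spleen. The tumor libraries had 6.65, 6.02 and 6.72 in wild type and 6.68 and 6.62 in knockout. The tissues did not overlap, and 4 of the 5 tumor libraries lay between 6.62 and 6.72, with wild-type library 2 below them. The difference was 2.44 (SE 0.179, adjusted p = 4.98e-08 by limma with Benjamini-Hochberg adjustment). Foxp3 fell by 0.85 as deposited over the same libraries, so Ccr8 minus Foxp3 within a library went from a mean of -2.25 in spleen (range -3.16 to -1.68) to 1.04 in tumor (range 0.50 to 1.48).

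CXCR4, the receptor of CXCL12, retains cells in bone marrow and stroma and is carried by most leukocytes. The Cxcr4 level was 6.83, 6.69 and 5.87 in wild-type spleen and 6.25, 7.45 and 6.97 in knockout spleen. In tumor it was 8.12, 7.95 and 7.98 in wild type and 8.51 and 8.17 in knockout. The spleen libraries spread more widely than the tumor libraries, yet the highest of them stayed below the lowest tumor library. The difference was 1.47 (SE 0.229, adjusted p = 5.87e-05 by limma with Benjamini-Hochberg adjustment). Cxcr4 was the most abundant of the 9 receptors in both tissues, also per kilobase of transcript.

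CXCR6 binds CXCL16 and marks tissue-resident and effector T cells. The Cxcr6 level was 3.88, 5.28 and 5.39 in wild-type spleen and 4.92, 4.23 and 4.22 in knockout spleen. The tumor levels were 7.17, 6.78 and 6.49 in wild type and 6.91 and 5.19 in knockout. Knockout library 2 was the only tumor library within the range of the spleen libraries. The difference was 1.85 (SE 0.361, adjusted p = 0.000386 by limma with Benjamini-Hochberg adjustment), the least precise of the 9. Of 7 CD8 T and NK cell markers, 4 rose in tumor, 1 fell and 2 were not called, beside 43.1% higher and 35.9% lower over all genes. The 4 that rose were Cd8a (3.99), Cd8b1 (2.48), Prf1 (3.03) and Klrk1 (2.05). The NK cell marker Klrb1c fell, from 2.39 to 3.32 over the spleen libraries to 1.13 to 1.80 over the tumor libraries. Ncr1 and Eomes were not called. The summed level of the 7 markers lay between 4.47 and 5.55 in spleen and between 6.11 and 8.0 in tumor. Among the tumor libraries it was lowest in knockout library 2 and highest in wild-type library 1, the libraries with the lowest and the highest Cxcr6. The part of these cells in the Cxcr6 difference was not tested.

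CCR7 follows CCL19 and CCL21 into lymph nodes and the white pulp of the spleen. The Ccr7 level was 6.11, 6.31 and 6.15 in wild-type spleen and 6.44, 6.37 and 6.32 in knockout spleen. In tumor it was 6.53, 6.51 and 6.43 in wild type and 7.24 and 6.61 in knockout. The tissues overlapped slightly, and knockout library 1 stood above the other tumor libraries. The difference was 0.38 (SE 0.128, adjusted p = 0.0161 by limma with Benjamini-Hochberg adjustment). Without knockout library 1 it was 0.23, still called. Its sign depends on how libraries are scaled, as described below, so no direction can be given for Ccr7.

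CCR4 is the receptor of CCL17 and CCL22 and is carried by many skin-homing and effector Tregs. The Ccr4 level was 4.09, 3.94 and 4.03 in wild-type spleen and 3.89, 3.88 and 3.96 in knockout spleen. The tumor levels were 4.14, 3.19 and 3.98 in wild type and 4.46 and 3.76 in knockout. The splenic libraries were nearly alike and fell inside the wider range of the tumor libraries. The difference was -0.06 (95% interval -0.43 to 0.32, adjusted p = 0.776 by limma with Benjamini-Hochberg adjustment). This interval holds for the values as deposited, and other scalings moved the difference beyond it in either direction, as described below.

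CXCR3, the receptor of the interferon-induced chemokines CXCL9, CXCL10 and CXCL11, is found on Th1-type cells. The Cxcr3 level was 5.40, 5.46 and 5.37 in wild-type spleen and 5.23, 5.31 and 5.35 in knockout spleen. In tumor it was 5.24, 4.26 and 4.79 in wild type and 5.29 and 5.22 in knockout. In 3 tumor libraries Cxcr3 was within or close to the splenic range, and wild-type libraries 2 and 3 lay clearly below it. The difference was -0.40 (SE 0.160, adjusted p = 0.0362 by limma with Benjamini-Hochberg adjustment). The call was lost when any 1 of 6 libraries was left out, spleen wild type 1, 2 or 3, spleen knockout 3 or tumor wild type 2 or 3 (adjusted p between 0.0514 and 0.0808, limma), and without tumor wild-type library 2 the difference was -0.22.

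CCR6 binds CCL20 and is carried by Th17-type cells and a subset of Tregs. The Ccr6 level was 3.68, 3.64 and 3.75 in wild-type spleen and 3.29, 3.53 and 3.27 in knockout spleen. In the tumor libraries the level was 2.69, 1.15 and 2.43 in wild type and 3.20 and 2.40 in knockout. All 5 tumor libraries lay below all 6 spleen libraries, and wild-type library 2 was the lowest by more than 1. The difference was -1.15 (SE 0.278, adjusted p = 0.00197 by limma with Benjamini-Hochberg adjustment). Without wild-type library 2 it was -0.84, still called. Within a library, Ccr6 minus Foxp3 had a mean of -2.82 in spleen (range -3.15 to -2.49) and -3.12 in tumor (range -3.72 to -2.67), and these ranges overlap.

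In tumor wild-type library 2, which had the lowest level of Ccr4, Ccr6, Ccr8, Cxcr3 and Cxcr4 among the tumor libraries, the summed Treg and CD4 T cell markers were also lowest (10.3, against 10.4 to 10.8). The summed macrophage and fibroblast markers were highest there (14.3 and 9.94). Tumor knockout library 1 had the highest level of 7 receptors, Ccr1, Ccr2, Ccr4, Ccr6, Ccr7, Cxcr3 and Cxcr4. Without both libraries 8 receptors were still called, 6 higher and 2 lower. Of the 9 Treg and CD4 T cell markers, 5 fell in tumor, 2 rose and 2 were not called as deposited, with a median difference of -0.40, and centring on T-cell reference genes turned this to 6 risen and 0 fallen. Over all 13897 genes tested 43.1% were called higher and 35.9% lower as deposited, and 9467 higher and 1334 lower after T-cell centring.

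**Figure D2:**
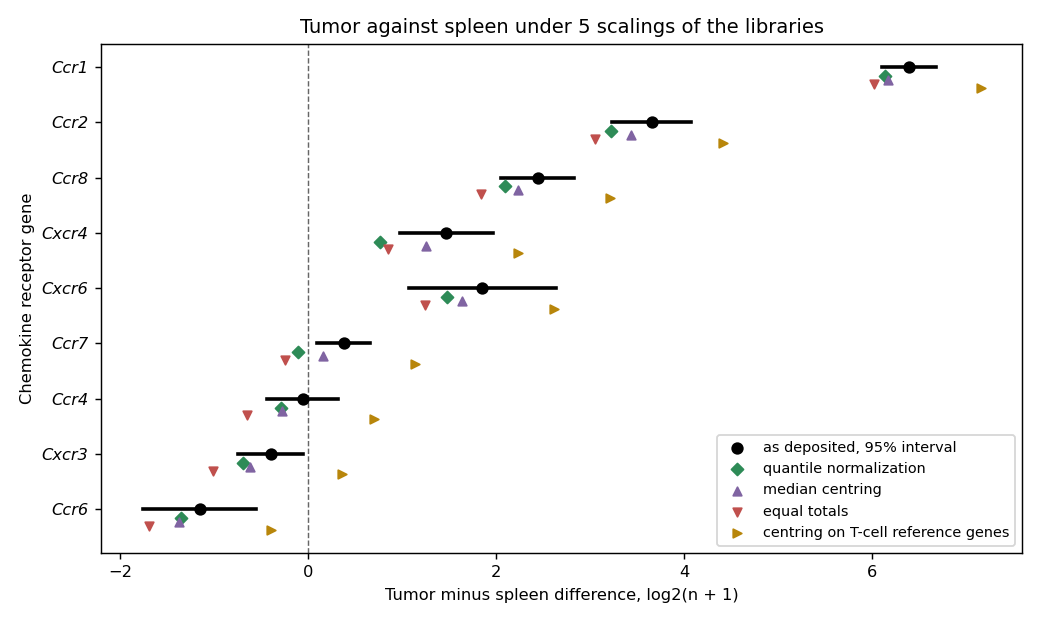
Difference between tumor and spleen on the log2(n + 1) scale for each receptor, as deposited (black, with the 95% interval of the fit) and after 4 other scalings of the libraries (colored marks). Ccr1, Ccr2, Ccr8, Cxcr4 and Cxcr6 stay to the right of 0 throughout, Ccr6 stays to the left, and Ccr7, Ccr4 and Cxcr3 cross 0.

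The receptors fell into those whose direction held under each scaling and those whose direction did not. The plot of the scalings shows that Ccr1 (6.02 to 7.15), Ccr2 (3.05 to 4.41), Ccr8 (1.84 to 3.21), Cxcr4 (0.76 to 2.23) and Cxcr6 (1.24 to 2.62) were called higher in tumor under each of them. Scaling moved the median of all genes by more than 0.1. It was 0.08 as deposited, -0.44 with equal totals and 0.84 with centring on 10 T-cell reference genes. Over all genes tested, 5983 were higher and 4988 lower as deposited, 4626 and 6358 after quantile normalization, 4831 and 6219 with median centring, and 9467 and 1334 after T-cell centring. With equal totals the split was 3286 higher and 7819 lower. Ccr7 was -0.24 with equal totals and 1.14 after T-cell centring. Ccr4 was called lower with equal totals (-0.64) and called higher after T-cell centring (0.71). Cxcr3 was called lower with equal totals (-1.01) and called higher after T-cell centring (0.37). Ccr6 was lower in each, and after T-cell centring its difference of -0.39 was not called (adjusted p = 0.132, limma). As deposited, Ccr6 and Cxcr3 were below the difference of Ccr8 by more than 2. Median and T-cell centring shift all genes of a library alike and so cannot change this gap. Equal totals do nearly the same. With quantile normalization the gap was also more than 2.

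Over the 4 groups as deposited, both spleen means lay below both tumor means for Ccr1, Ccr2, Ccr7, Ccr8, Cxcr4 and Cxcr6, and the genotypes overlapped within each tissue for Ccr1, Ccr2, Ccr8 and Cxcr6. Both tumor means lay below both spleen means for Ccr6 and Cxcr3. For Ccr4 each pair of neighbouring groups overlapped. For Cxcr6 the knockout tumor libraries overlapped with the wild-type libraries of both tissues.

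The order of the receptors by level changed between the tissues. Per kilobase of the longest transcript, n was highest in spleen for Cxcr4 (median 59.5), Ccr7 (39.8) and Cxcr3 (23.2), and lowest for Ccr2 (1.80) and Ccr1 (0.0596). In tumor it was highest for Cxcr4 (154.1), Ccr8 (84.7) and Cxcr6 (57.3), and lowest for Cxcr3 (20.9), Ccr4 (5.28) and Ccr6 (2.51). By this measure Ccr8 ranked 4 in spleen and 2 in tumor. By n itself it ranked 5 in both, and whether n had already been divided by length is not stated, so its move rests on that division. Cxcr3 went from the third place to the seventh by either measure. These are medians over 6 and 5 libraries, and the order of close neighbours was not tested.

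Genes whose pattern over the 11 libraries was most like each receptor were found by the root mean square (RMS) difference of the levels after each gene had been centred on its own mean. For Ccr1 the nearest was Cxcl16 (RMS 0.171), followed by Anpep and Cdkn1a. For Ccr2 they were Klrb1b (0.301), Arl11 and Hlx. Ccr8 was most like Prdm1 (0.233), which encodes the transcription factor BLIMP-1 of effector Tregs, then Plekho1 and Shtn1. Cxcr6 had the loosest match, Ifng (0.380), the gene of interferon gamma, then Perp and Nr4a2. Cxcr4 was most like Gngt2 (0.222), Ccr6 most like Rps2-ps9 (0.235), Ccr7 most like Calcrl (0.109), Ccr4 most like Paqr8 (0.130) and Cxcr3 most like Zc3h12d (0.121). A small RMS comes more easily to genes that vary little, and the 11 libraries fall into 2 tissues, so these are descriptions of similar profiles.

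**Figure D3:**
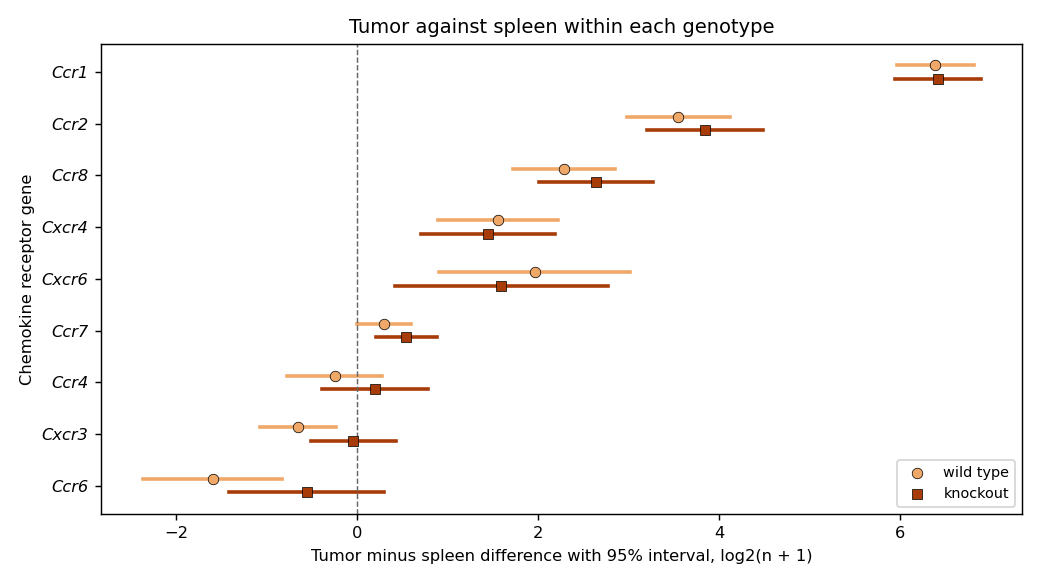
Difference between tumor and spleen on the log2(n + 1) scale within wild type (3 against 3 libraries) and within knockout (2 against 3), with 95% intervals from the fit with 4 group means. The intervals of the genotypes overlap for each receptor, and Ccr6 and Cxcr3 lie further below 0 in wild type.

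Within each genotype the 5 large rises were called again. In wild type 7 of the 9 receptors were called, beside a background of 70.5% of all genes (39.2% higher and 31.3% lower). Ccr1 rose by 6.39, Ccr2 by 3.55, Ccr8 by 2.29, Cxcr6 by 1.96 and Cxcr4 by 1.56, Ccr6 fell by 1.60 and Cxcr3 fell by 0.65, which T-cell centring turned to a rise of 0.11 that was not called. Without tumor wild-type library 2 the Cxcr3 difference was -0.40, still called. Ccr7 (0.30) was not called, but was with either knockout tumor library left out of the shared estimate of spread (adjusted p = 0.00639, limma). In knockout 6 of the 9 were called, all higher, beside 65.7% of all genes (36.2% higher and 29.5% lower). Ccr1 rose by 6.41, Ccr2 by 3.84, Ccr8 by 2.64, Cxcr6 by 1.59, Cxcr4 by 1.45 and Ccr7 by 0.54, the last with a sign that depends on the scaling. Ccr7 was 0.23 and not called without tumor knockout library 1 (adjusted p = 0.0944, limma) and 0.86 without tumor knockout library 2. Quantile normalization and equal totals each ended the calls of Cxcr4 and Cxcr6 in knockout. The Cxcr6 call in knockout rested on single libraries. It was lost without spleen knockout library 2 (1.48, adjusted p = 0.0567), without spleen knockout library 3 (1.48, adjusted p = 0.0596) and without tumor knockout library 1 (0.73, adjusted p = 0.262, all by limma), and without tumor knockout library 2 the difference was 2.46.

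The fall of Ccr6 and of Cxcr3 was called in wild type and not in knockout (Ccr6 -0.56, Cxcr3 -0.05), as the plot by genotype shows. This contrast depends on the processing. With equal totals both falls were called in knockout too (Ccr6 -1.12, adjusted p = 0.013, and Cxcr3 -0.67, adjusted p = 0.00926, limma). The Ccr6 difference in knockout was -0.96 without tumor knockout library 1 and -0.16 without tumor knockout library 2, neither of them called. With tumor wild-type library 2 left out of the shared estimate of spread, the Ccr6 difference in knockout was called too (adjusted p = 0.0436, limma). The interaction of tissue and genotype, which tests that contrast itself, called 0 of the 9 receptors and 0% of all genes (limma). For Ccr6 it was 1.04 (95% interval -0.11 to 2.19) and for Cxcr3 0.60 (95% interval -0.03 to 1.24), both with an adjusted p of 0.9997 by limma with Benjamini-Hochberg adjustment. No receptor had an unadjusted interaction p below 0.05, against 383 of all genes. The intervals are wide, and that of Ccr6 does not exclude a dependence on genotype of up to about 2.

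Deletion of Cd177 in Foxp3-expressing cells was the other comparison of the design. Cd177 itself was not analysed here, so the genotype labels were not checked from its level. In spleen the 9 receptors differed between knockout and wild type by -0.39 (Cxcr6) to 0.43 (Cxcr4). Of them 0 were called, beside 0% of all genes, and 0 had an unadjusted p below 0.05 (limma). The widest 95% interval was that of Cxcr6 (-1.45 to 0.66) and the narrowest that of Ccr7, which was 0.19 higher in knockout (-0.12 to 0.49). Ccr8 was 0.16 lower (-0.16, 95% interval -0.73 to 0.40). For 3 of the 9 receptors the genotypes did not overlap in spleen, Ccr6 and Cxcr3 lower and Ccr7 higher in knockout, beside 9.17% of all genes in either direction.

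In tumor, 3 wild-type and 2 knockout libraries were compared, and again 0 of the 9 receptors were called, beside 0.0072% of all genes (limma). Ccr7 was higher in knockout by 0.43 (95% interval 0.09 to 0.77) and Cxcr3 by 0.49 (95% interval 0.02 to 0.96), and these 2 receptors alone had an unadjusted p below 0.05, beside 634 of all genes. Their adjusted p was 0.9997 (limma with Benjamini-Hochberg adjustment). The genotypes did not overlap for 2 of the 9 receptors, Ccr7 and Cxcr4, beside 13.6% of all genes in either direction. Without knockout library 1 the Ccr7 difference was 0.12, and without wild-type library 2 the Cxcr3 difference was 0.24. Ccr6 was 0.71 higher in knockout (95% interval -0.15 to 1.57), 0.24 without wild-type library 2 and 0.31 without knockout library 1. Cxcr6 was 0.76 lower in knockout (-0.76, 95% interval -1.94 to 0.42), and without knockout library 2 the Cxcr6 difference was 0.10.

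Other receptors, ligands and signalling genes of the pathway were taken from lists. Of 14 other chemokine receptors, 11 were tested and all 11 were called between tissues as deposited, 5 higher and 6 lower, with a median difference of -0.41. Over all genes tested 78.9% were called, 43.1% higher and 35.9% lower, so the count itself sets this list little apart. Centring on T-cell reference genes left 9 calls among the 11 receptors, 5 higher and 4 lower. Cx3cr1, the fractalkine receptor of monocytes, rose by 3.76, and the atypical receptor genes Ccrl2 and Ackr3 rose by 5.12 and 4.52, all called higher under each scaling. Ackr3 passed the filter on low levels through its tumor libraries only (spleen mean 0.23). Cxcr5, which leads T and B cells into B cell follicles, fell by 2.91, Ccr9, a receptor for the small intestine, by 2.18, Cxcr2 by 1.70 and Ccr3 by 1.58 (called lower under each scaling). Ackr4 fell by 0.72 and Ccr10 by 0.41, both not called after T-cell centring. Both passed the filter through their spleen libraries only (tumor means 0.22 and 0.45).

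The tested ligands of 6 of the receptors were higher in the tumor samples under each scaling. Of 19 ligand genes 12 were tested. All 12 rose, beside 43.1% of all genes tested, with a median difference of 4.84 and a range of 1.16 to 6.85. For CCR1 these were Ccl6 (6.85), Ccl9 (6.17), Ccl3 (5.11) and Ccl5 (2.83), and for CCR8 Ccl1 (3.49). For CCR4 they were Ccl22 (4.58) and Ccl17 (4.19), and for CXCR3 Cxcl9 (6.21), Cxcl10 (5.20) and Cxcl11 (1.16). Cxcl16, the ligand of CXCR6, rose by 6.58, and Cxcl12, the ligand of CXCR4, by 2.97. Several of these ligands are products of macrophages and dendritic cells or of stroma, and the summed levels of the macrophage and fibroblast markers rose as well (fibroblast markers 1.10 to 1.64 in spleen and 8.83 to 9.94 in tumor). The part of these cells was not tested. Ccl22 and Cxcl12 passed the filter on low levels through their tumor libraries only (spleen means 0.42 and 0.41). The listed ligands of CCR6, CCR7 and CCR2 were looked for and not found among the 14604 genes. In each library 0 of these genes had a level of 0. A gene without a value in some libraries may therefore be missing, and absence does not show that a ligand was not expressed. The same holds for genes missing from the other lists.

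**Figure D4:**
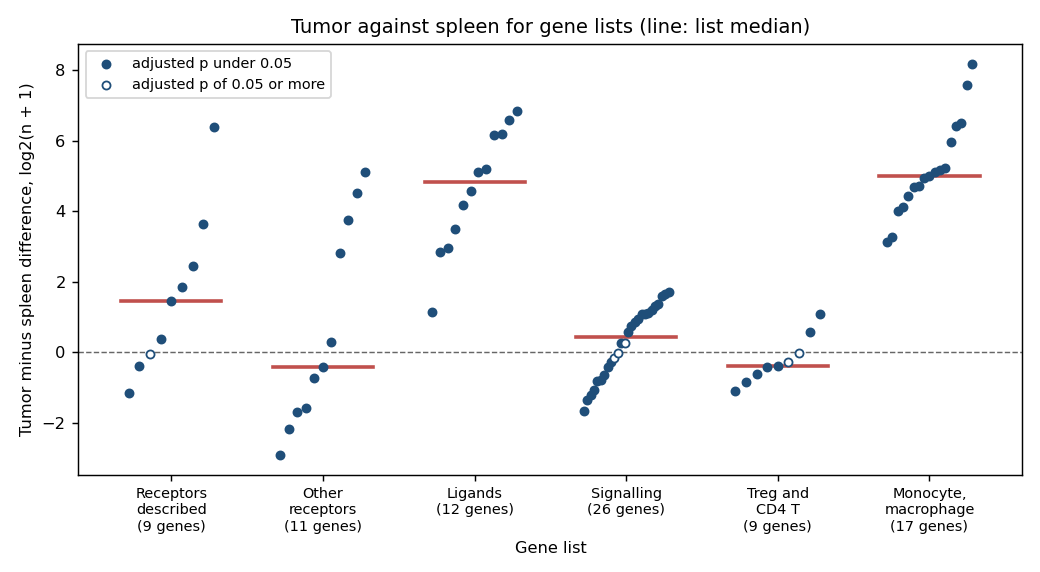
Difference between tumor and spleen on the log2(n + 1) scale, as deposited, for each tested gene of 6 lists, sorted within the list. Filled points passed an adjusted p of 0.05, open points did not, and the red line is the list's median, which is 1.47 for the 9 receptors, 4.84 for the ligands and 5.0 for the monocyte and macrophage markers.

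Of 28 signalling genes 26 were tested, and 14 were called higher, 9 lower and 3 not called as deposited, with a median difference of 0.42. The background over all genes tested was 43.1% higher and 35.9% lower. With equal totals the split of the signalling genes was 10 higher and 12 lower, and after T-cell centring 19 higher and 4 lower. The G-protein subunit genes Gng2 (1.72), Gnb1 (1.38) and Gnai2 (1.10) rose under each scaling, as did Rgs1 (1.60), whose product speeds the shut-off of Gi signals. Lower were Plcb2 (-1.67), a phospholipase, the regulator Rgs14 (-1.34), the receptor kinase Grk6 (-1.21) and Dock2 (-1.08), the Rac activator of lymphocyte migration. Plcb2, Rgs14, Grk6 and Dock2 were called lower under each scaling. As the plot of the lists shows, receptors and signalling genes moved in both directions, whereas the ligands and the macrophage markers moved in 1.

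Markers of the remaining cell types were mixed as deposited, where 43.1% of all genes tested were called higher and 35.9% lower in tumor. Of the neutrophil markers 2 were tested and both rose (Csf3r by 2.43 and Mmp9 by 1.37). Of the 6 dendritic cell markers 4 rose and 2 were not called, and the 4 tested fibroblast markers all rose. The fibroblast markers Col3a1 and Pdgfrb and the dendritic cell marker Clec9a passed the filter through their tumor libraries only (spleen means 0.27, 0.12 and 0.37). Of the 4 tested B cell markers 3 fell and 1 rose, and of the 6 tested platelet and erythroid markers 5 fell and 1, Pf4, rose, which macrophages also express.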

How the data were processed

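RNA of sorted Tregs was sequenced in 11 libraries, and each was assigned to its group by its labelled tissue and genotype. The authors removed ribosomal RNA, ran kallisto on the single-end reads against mm10, aggregated the estimated counts by gene symbol in sleuth 0.30.0 and deposited log2 values, log2(n + 1), for 14604 genes. Not given in the sources used here are the version of kallisto, the annotation, whether genes were left out before deposit and whether n was rescaled. With the number of reads behind a value unknown, precision is judged from the spread between libraries, and counting intervals are not given.

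The log2 values were tested as deposited. Genes with a mean of at least 0.5 were kept (13897, with 707 left out). limma 3.58.1 in R 4.3.3 (mean-variance trend, Benjamini-Hochberg adjustment) compared 5 tumor with 6 spleen libraries, genotypes pooled. A second model with 4 group means gave tumor against spleen within genotype, the interaction, and knockout against wild type within tissue. Exact two-sided permutation tests over 462 splits used numpy 2.4.6. The fit was tested on simulated data. The study's own test was an unpaired T test with Bonferroni correction, and Bonferroni is among the alternatives. No identical libraries were found (the smallest median absolute difference between 2 libraries was 0.125).

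The text names the 9 receptors, genes of the lists beside the count of each list, sort and lineage genes, cell type markers, and the 3 genes with the smallest root mean square difference from a receptor. The values of 1 listed gene are not reported here. The receptors and lists were chosen with earlier results of these data known. The alternatives changed the scaling, pseudocount, filter, variance model, correction, replicate block, covariate and libraries. Equal totals without the most abundant gene, and leaving out tumor wild type 2 with tumor knockout 1, were added after seeing the data. Positions came from GENCODE release M21 and start-site windows from RefSeq.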

Additional observations from a re-analysis of the deposited data

Results flagged for a closer look

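In 50 groups of 5 or 6 libraries of 1 tissue, the highest or lowest value was compared with the others by Dixon's test, which flags about 1 group in 20 by chance, or 2.5 of the 50. It flagged 4 values. The Ccr7 level of tumor knockout library 1 was 7.24, above 6.43 to 6.61 in the other tumor libraries. The Ccr8 level of tumor wild-type library 2 was 6.02, below 6.62 to 6.72 in the others. In spleen knockout library 2, the summed level of the dendritic cell markers was 4.42 and that of the B cell markers was 5.50, both above the other spleen libraries. That library also had the highest Ccr1, Ccr2 and Cxcr4 levels in spleen.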

How the results depend on the processing

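The rises of Ccr1, Ccr2 and Ccr8 between tumor and spleen kept their direction and call under all 27 alternatives, and those of Cxcr4 and Cxcr6 under all but the Bonferroni correction. Of the 9 receptors, Bonferroni correction left 3 called between tissues, 3 in wild type and 3 in knockout, and quantile normalization left 3 called in knockout. With the replicate block, 7 receptors were called between tissues, since Cxcr3 was lost (-0.40, adjusted p = 0.0728 by limma). It changed no other call. Same-numbered libraries did not deviate together between tissues (correlations -0.128 to 0.0375 in 5 pairs, 0 of them above 0.1), and 2 of 5 pairs across genotypes were above 0.1 (-0.194 to 0.454), so the numbers were not taken to pair animals.

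Direction reversed as follows. Between tissues, Ccr7 became -0.10 after quantile normalization, -0.24 with equal totals and -0.24 without the most abundant gene in the totals, and T-cell centring made Ccr4 0.71 and Cxcr3 0.37. In wild type, Ccr7 became -0.15, -0.30 and -0.34 under these 3 settings, and T-cell centring made Ccr4 0.52 and Cxcr3 0.11. In knockout, equal totals and totals without the top gene made Ccr7 -0.088 and -0.039 and Ccr4 -0.40 and -0.35. Quantile normalization and median centring made Ccr4 there -0.025 and -0.00329, and T-cell centring made Ccr6 0.21 and Cxcr3 0.72. With each library left out in turn, Ccr4 ranged from -0.19 to 0.12 between tissues, from -0.43 to 0.043 in wild type and from -0.15 to 0.55 in knockout, and Cxcr6 between knockout and wild type in tumor from -1.63 to 0.10. Without tumor wild type 2 and tumor knockout 1, Ccr4 was 0.043 in wild type and -0.15 in knockout, and Ccr6 between knockout and wild type in tumor was -0.16. The cause was not tested. Between tissues, a change of scaling ended, added or reversed a call only for Ccr4, Ccr6, Ccr7 and Cxcr3, and with the scaling of n unknown these differences remain uncertain.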
